A study of Bos taurus with 34 samples.

Results

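Aquaporins are membrane channels through which water crosses cells along an osmotic gradient. The family has water-selective members, aquaglyceroporins that also pass glycerol and other small neutral solutes, and more distant members held largely inside the cell. In the oviduct and uterus they are studied because secretion by the lining makes the fluid in which sperm, oocyte and early embryo are bathed. The genes described here are 8 aquaporins, AQP1, AQP3, AQP4, AQP5, AQP7, AQP8, AQP9 and AQP11, taken as a family. A row of the count table belonged to a gene when its RefSeq transcript maps to that symbol, and the row with the highest mean count stood for the gene. Of the 8 genes 7 had a row, out of 21541 genes matched in all, and 4 of them, AQP1, AQP3, AQP5 and AQP9, had enough counts to be tested.

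The samples were lining tissue of oviduct and uterus from 5 Holstein heifers that had never calved (nulliparous), with the numbers 10872, 10882, 11033, 11070 and 11110, which had been brought to the same stage with an intravaginal progesterone insert and were killed on day 2 after ovulation. Ampulla, the wide part of the oviduct, and upper and mid uterine horn were taken on the side of ovulation (ipsilateral) and on the other side (contralateral), and the uterine body was taken once. This gave 34 libraries in 7 site groups of 5 heifers each, except the ipsilateral upper horn with 4, since that site of heifer 11110 was not analysed here. No animal was untreated and no other day was sampled, so every comparison is between sites of the same animals. Upper horn, mid horn and body together are called endometrium, and each counts equally in its mean.

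Library totals ran from 11619486 to 30412782 counts with a median of 20610132.5. The labels were checked against marker genes. Over 8 listed genes of general epithelium the summed level was 5972 to 7941 CPM (counts scaled to a common library size) in the 10 ampulla libraries and 976 to 4400 CPM in the 24 endometrial ones. For ciliated cells the sums were 1353 to 1891 and 83.8 to 490 CPM. Stroma marker sums were 40.0 to 119 CPM in the ampulla, with DCN, LUM, PDGFRA and PDGFRB at 0 counts, and 37363 to 86436 CPM in the endometrium. The ampulla libraries therefore carried epithelial transcripts and hardly any stromal ones, while the endometrial libraries carried both. In bulk samples, fewer cells of a type and less RNA per cell cannot be told apart. The contralateral mid horn of heifer 10882 went against its label in part: KRT5, a keratin of basal epithelium, stood at 453 CPM, which is 47.3% of its level in the ampulla of the same heifer, while no other endometrial library exceeded 40.5 CPM.

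Between ampulla and endometrium, AQP1 was lower and AQP9 and AQP5 were higher in the ampulla, while AQP3 did not pass the test. In the edgeR quasi-likelihood test 3 of the 4 tested members were called at an adjusted p under 0.05, 2 higher and 1 lower in the ampulla. Of all 17241 features tested, 64.9% were called in this comparison, 29.4% higher and 35.6% lower in the ampulla, so a share of 3 in 4 is near what the table as a whole shows. The members' median log2 difference was 2.86, against -0.18 over all tested features. Against the upper horn alone, the nearest uterine site, the same counts were found, 2 higher and 1 lower of 4, where 55.2% of all features were called, 24.9% higher and 30.4% lower. The median over the members was 4.04 and that over all features -0.18. The ampulla libraries enter both comparisons. AQP9 and AQP5 had enough counts to be tested largely through the ampulla, which held 3563 of 3607 and 362 of 396 counts. AQP1 had them through the endometrium, with 234289 of 234299 counts. The calls of these 3 members and the medians over the members are tied to that selection. They are not read as a result about the family.

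**Figure D1:**
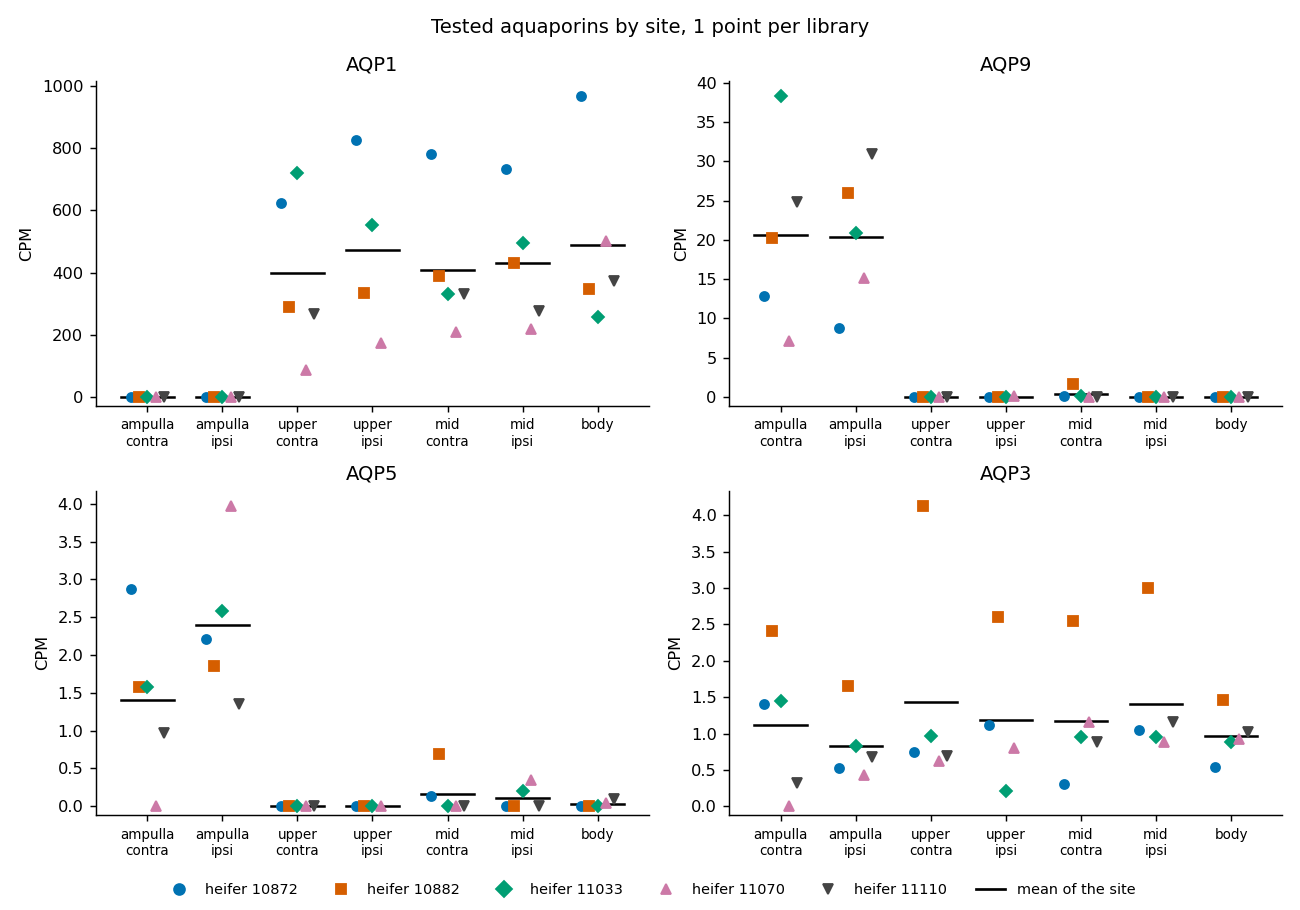
Level (CPM, linear axis, a separate scale in each panel) of AQP1, AQP9, AQP5 and AQP3 in each of the 34 libraries, by site; each symbol is 1 heifer and the bar is the mean of the site. AQP1 lies at 0.173 CPM or less in all ampulla libraries and between 86.8 and 968 CPM in the uterus, AQP9 and AQP5 are high in the ampulla, and AQP3 has no such order.

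AQP1 is the water channel of capillary endothelium, red blood cells and kidney tubules. It had 234299 counts in the 34 libraries and only 10 of them in the 10 ampulla libraries. The contralateral ampulla had 4 counts in 3 of 5 libraries and the ipsilateral ampulla 6 counts in 2 of 5, so that levels ran from 0 to 0.173 CPM. The contralateral upper horn of heifers 10872, 10882, 11033, 11070 and 11110 had 622, 289, 721, 86.8 and 267 CPM. In the ipsilateral upper horn the first 4 of these heifers had 827, 335, 554 and 172 CPM. No uterine library overlapped with an ampulla library.

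In the contralateral mid horn the levels of AQP1 were 782, 388, 331, 208 and 330 CPM in the same order of heifers. On the ipsilateral side of the mid horn they were 733, 431, 496, 220 and 276 CPM. The body had 968, 348, 257, 501 and 372 CPM. Heifer 10872 was highest in 4 of the 5 uterine sites and heifer 11070 lowest in all 4 horn sites.

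Averaged per heifer, AQP1 stood at 0.0535 ± 0.0475 CPM in the ampulla against 433 ± 215 CPM in the endometrium (SD, n = 5 heifers). The pooled counts gave a ratio of endometrium over ampulla of 7862, with a 95% interval of 4275 to 16395 that covers counting error only. On the log2 scale AQP1 in the ampulla differed from the upper horn by -12.61 ± 0.45 (SE, adjusted p = 4.49e-21, edgeR), lower in 5 of 5 heifers, with no overlap between libraries. The body had the highest mean among uterine sites, 489 ± 281 CPM, followed by the ipsilateral upper horn with 472 ± 284, the ipsilateral mid horn with 431 ± 203, the contralateral mid horn with 408 ± 219 and the contralateral upper horn with 397 ± 265 CPM. No neighbours in that order differ by as much as their SD.

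The endothelial marker list moved with AQP1. Of 12 listed genes 11 had a row and 8 were tested, and all 8 were called lower in the ampulla, with a median log2 difference of -9.38. The 11 rows summed to 3.73 to 11.4 CPM in the ampulla, where PECAM1, CDH5, EGFL7 and CLDN5 were at 0 counts, and 536 to 1191 CPM in the endometrium. PLVAP, a protein of capillary fenestrae, stood at 0.165 ± 0.0809 and 187 ± 39.2 CPM (SD, n = 5). The fall was not particular to endothelial markers. All tested markers of stroma (8 of 8), smooth muscle (6 of 6) and leukocytes (5 of 5) were called lower in the ampulla too. Their median log2 differences were -9.03, -6.64 and -3.32. Epithelial lists mostly rose, as given below with AQP9. The part of any of these lists in the difference of AQP1 was not tested. Red cell markers did not move in the same way: 3 of the 7 with a row were tested, and by edgeR 2 rose and 1 fell, while sums ran from 2.00 to 6.58 CPM in the ampulla and from 0.0973 to 3.48 CPM in the endometrium. HBB, a haemoglobin chain, fell and had 0.020 ± 0.034 CPM in the ampulla against 0.732 ± 0.996 CPM in the endometrium (SD, n = 5).

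Within the 24 endometrial libraries AQP1 spread more widely than the endothelial markers. AQP1 ran from 86.8 to 968 CPM, an 11.1-fold span, and the endothelial sum spanned 2.22-fold. AQP1 divided by the endothelial sum ran from 0.153 to 1.001. Its heifer means were 0.887 in heifer 10872, 0.460 in 10882, 0.473 in 11033, 0.276 in 11070 and 0.320 in 11110. The highest heifer mean of AQP1 itself was 786 CPM in heifer 10872 and the lowest 238 CPM in heifer 11070, where the endothelial sums averaged 895 and 800 CPM.

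**Figure D2:**
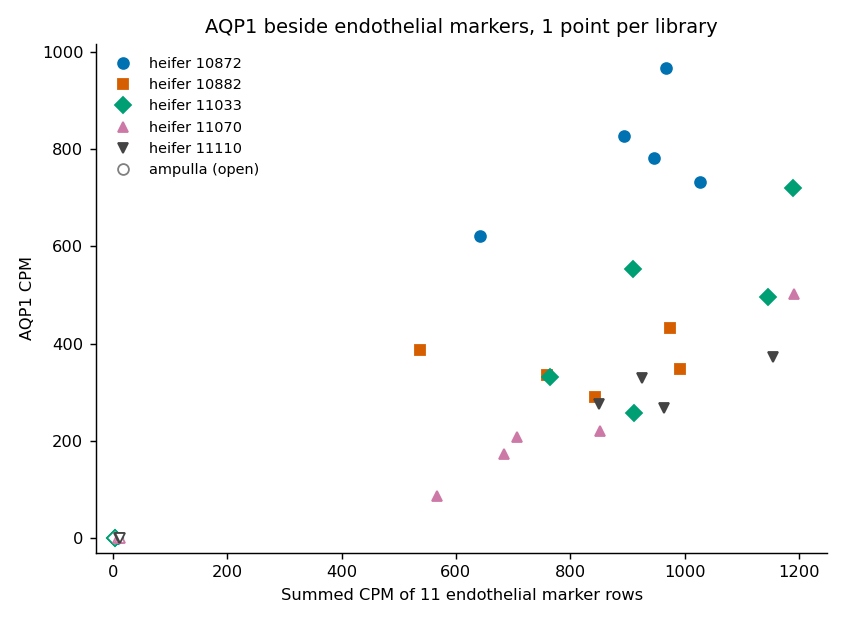
AQP1 level (vertical axis, CPM) against the summed level of 11 endothelial marker rows (horizontal axis, CPM) in each of the 34 libraries; filled symbols are endometrium, open symbols ampulla, and the shape marks the heifer. Ampulla libraries lie near the origin at 3.73 to 11.4 CPM of endothelial markers, and the endometrial libraries of heifer 10872 lie above those of heifer 11070.

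AQP5, the water channel of the apical membrane in salivary, tear and airway glands, had 362 of its 396 counts in the ampulla. In the contralateral ampulla it had 2.87, 1.58, 1.57, 0 and 0.969 CPM in heifers 10872, 10882, 11033, 11070 and 11110. In the ipsilateral ampulla it had 2.21, 1.85, 2.59, 3.98 and 1.35 CPM. All 9 upper horn libraries had 0 counts, and 18 of the 24 endometrial libraries were at 0. The highest endometrial value, 0.691 CPM or 16 of the 34 endometrial counts, was in the contralateral mid horn of heifer 10882. The groups overlapped, because the contralateral ampulla of heifer 11070 was at 0.

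Averaged per heifer, AQP5 stood at 1.90 ± 0.507 CPM in the ampulla against 0.0616 ± 0.0480 CPM in the endometrium (SD, n = 5), and the ampulla was higher in 5 of 5 heifers. The fitted log2 difference was 6.02 ± 0.71 (SE, adjusted p = 6.01e-08, edgeR). Pooled counts gave a ratio of 31.7 (95% interval 22.3 to 46.5), which became 57.3 (35.7 to 97.8) without the contralateral mid horn of heifer 10882. Against the upper horn the ampulla was at least 128-fold higher, a bound set at 3 counts over the 9 libraries (adjusted p = 2.21e-06, edgeR). Against the body, with 3 counts, the ratio was 83.5 (28.4 to 407).

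The library at 0, the contralateral ampulla of heifer 11070, had 13971411 counts in all, so that 3 counts would be 0.239 CPM. The other 9 ampulla libraries had 0.969 to 3.98 CPM of AQP5. AQP3 was also at 0 in that library, against 0.323 to 2.41 CPM in the other 9, while AQP9 and AQP6 were present at 7.10 and 9.50 CPM. Without that library the log2 difference of AQP5 between ampulla and endometrium was 6.28 ± 0.63 (SE, adjusted p = 4.55e-09, edgeR).

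AQP9 is an aquaglyceroporin with a wide pore that passes glycerol, urea and other neutral solutes, known from liver and white blood cells. In the contralateral ampulla it had 12.8, 20.2, 38.3, 7.10 and 24.8 CPM in heifers 10872, 10882, 11033, 11070 and 11110. In the ipsilateral ampulla it had 8.72, 25.9, 20.9, 15.1 and 31.0 CPM. The endometrium had 44 counts in all and 20 of its 24 libraries were at 0. The exceptions were the contralateral mid horn of heifer 10882 with 39 counts, 1.68 CPM, that of heifers 10872 and 11033 with 2 counts each, and the ipsilateral upper horn of heifer 11070 with 1. Every ampulla library was above every endometrial one.

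Averaged per heifer, AQP9 stood at 20.5 ± 9.05 CPM in the ampulla against 0.0774 ± 0.145 CPM in the endometrium (SD, n = 5). The count ratio was 241 (95% interval 179 to 333), and without the contralateral mid horn of heifer 10882 it was 2030 (869 to 6255), resting on 5 endometrial counts. Against the upper horn, with 1 count, it was 3780 (678 to 149360), and against the body, with none, the ampulla was at least 822-fold higher. The fitted log2 difference from the upper horn was 11.03 ± 0.87 (SE, adjusted p = 1.54e-09, edgeR), higher in 5 of 5 heifers.

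The general leukocyte marker list did not move with AQP9. All 5 tested leukocyte markers of 7 with a row were called lower in the ampulla, where their list summed to 15.9 to 44.9 CPM against 99.6 to 343 CPM in the endometrium. Neutrophil markers, 3 of 7 listed with a row and none tested, summed to at most 0.852 CPM in any ampulla library. In the endometrium they summed to at most 0.2205 CPM, and the medians were 0.171 and 0 CPM. At this level, and without rows for CSF3R, S100A8, S100A9 and FCGR3B, their direction is undetermined. Epithelial lists moved with AQP9 and AQP5: 6 of 8 tested markers of general epithelium rose in ampulla and 1 fell, and 7 of 7 ciliated, 3 of 3 oviduct secretory and 3 of 3 basal markers rose. Smooth muscle markers fell in 6 of 6 tested, and of 4 tested mesothelial markers 2 rose and 1 fell. Their part in the differences was not tested.

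AQP9 had a second row, with 659 counts in all against 3607 for the row described so far. In the ampulla the second row held a median of 11.5% of the 2 rows' counts. Its share was 7.80 to 31.4% in 9 of the ampulla libraries and 58.2% in the contralateral ampulla of heifer 11070, with 124 counts against 89. In the contralateral mid horn of heifer 10882 the second row held 41.8%, with 28 counts against 39. How reads shared by both transcripts were counted is not known here.

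**Figure D3:**
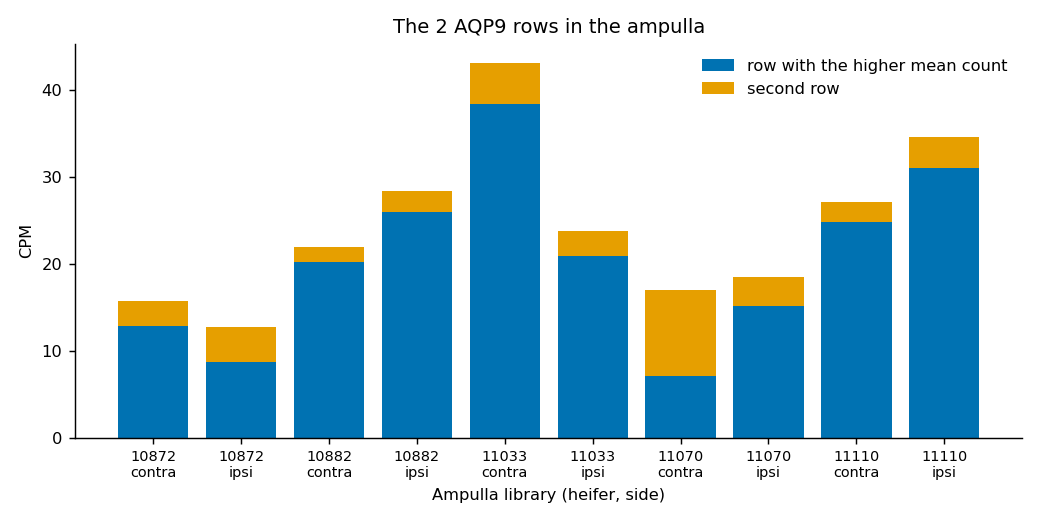
Level of both AQP9 rows (CPM, stacked bars starting at 0) in the 10 ampulla libraries, named by heifer and side. The second row holds 7.80 to 31.4% of the counts in 9 libraries and 58.2% in the contralateral ampulla of heifer 11070.

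AQP3, the glycerol and water channel of basolateral membranes in skin and other epithelia, was the tested member without a called difference. It had 801 counts, in 33 of 34 libraries. The contralateral ampulla had 1.41, 2.41, 1.44, 0 and 0.323 CPM in heifers 10872, 10882, 11033, 11070 and 11110, and the ipsilateral ampulla 0.53, 1.65, 0.827, 0.432 and 0.677 CPM. Uterine site means ran from 0.968 ± 0.329 CPM in the body to 1.43 ± 1.51 CPM in the contralateral upper horn (SD, n = 5). All site ranges overlapped.

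Heifer 10882 had the highest AQP3 level in each of the 7 sites. Its endometrial mean was 2.75 CPM, while the other 4 heifers had 0.753, 0.795, 0.879 and 0.939 CPM. Ampulla and endometrium averaged 0.969 ± 0.696 and 1.22 ± 0.856 CPM (SD, n = 5), and the ampulla was lower in 3 of 5 heifers. The log2 difference was -0.30 ± 0.32 (SE, adjusted p = 0.429, edgeR), with a 95% interval of -0.93 to 0.34.

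The other members had too few counts for a test. AQP4, the water channel of brain astrocytes, had 14 counts in 9 libraries, 3 of them in the ampulla. AQP8, which passes water and other small molecules in glands and gut, had 11 counts in 7 libraries, 2 of them in the ampulla. AQP7, the glycerol channel of fat cells, had 7 counts in 5 libraries and none in the ampulla, which allows a level of up to 0.0171 CPM there. For AQP4 and AQP8 the ratios of endometrium over ampulla, 1.23 (95% interval 0.325 to 6.87) and 1.51 (0.313 to 14.4), leave the direction undetermined at this depth. Fat cell markers, 4 of 5 with a row, summed to at most 0.503 CPM in any endometrial library and 0.216 CPM in any ampulla library. AQP11, a channel of the endoplasmic reticulum, was not analysed here. AQP4 and AQP7 have 3 and 4 transcripts in the RefSeq table and 1 row each.

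The remaining aquaporins of the RefSeq table were AQP2, AQP6, AQP10, AQP12 and MIP, and the first 3 of these could be tested. All 3 were called higher in the ampulla than in the endometrium, where 29.4% of all features were, with a median log2 difference of 4.05. Against the upper horn 2 of the 3 were called higher, where 24.9% of all features were. AQP2 and AQP6 had enough counts to be tested largely through the ampulla, which held 478 of 575 and 2863 of 3150 counts. Their calls are tied to that selection and are not read as a result about the family. AQP12, a pancreatic channel, and MIP, the channel of lens fibres, had 21 and 17 counts. In the RefSeq gene order AQP6, AQP5 and AQP2 follow each other with 0 genes between them and without overlapping spans, and AQP7 and AQP3 are likewise adjacent. AQP6, AQP5 and AQP2 were each called higher in the ampulla, AQP3 was not called and AQP7 was not tested. AQP5, like AQP2 and AQP6, was tested largely through the ampulla, which held 362 of its 396 counts. These calls are therefore not read as a pattern of neighbouring genes.

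AQP6, known from vesicles of kidney intercalated cells and able to pass anions, was high in all ampulla libraries. In the contralateral ampulla it had 13.01, 13.3, 10.6, 9.50 and 9.82 CPM in heifers 10872, 10882, 11033, 11070 and 11110. In the ipsilateral ampulla it had 21.0, 23.3, 22.8, 16.7 and 17.1 CPM. Endometrial libraries were at 0 to 0.935 CPM, except the contralateral mid horn of heifer 10882 with 7.17 CPM. No endometrial library reached the ampulla range. The ampulla and endometrium means were 15.7 ± 2.30 and 0.517 ± 0.637 CPM (SD, n = 5), and the log2 difference was 5.73 ± 0.49 (SE, adjusted p = 1.37e-11, edgeR). The count ratio of 29.7 (95% interval 26.3 to 33.7) became 67.4 (56.2 to 81.5) without that library.

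AQP2, the vasopressin-regulated channel of the kidney collecting duct, had 3.87, 3.10, 1.11, 2.39 and 2.26 CPM in the contralateral ampulla. In the ipsilateral ampulla it had 3.57, 1.4997, 2.17, 3.59 and 3.08 CPM. Endometrial levels were 0 to 0.555 CPM, except 1.17 CPM in the contralateral mid horn of heifer 10882, which exceeded the lowest ampulla library. The log2 difference was 4.05 ± 0.43 (SE, adjusted p = 1.23e-09, edgeR), higher in 5 of 5 heifers. The count ratio of 14.7 (95% interval 11.8 to 18.5) became 19.5 (15.1 to 25.4) without that mid horn library.

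AQP10, an aquaglyceroporin described in human gut, had 1.24 ± 0.648 CPM in the ampulla against 0.662 ± 0.320 CPM in the endometrium (SD, n = 5). Its libraries ran from 0.262 to 2.89 CPM in the ampulla and from 0.136 to 2.61 CPM in the endometrium, so they overlapped over most of their range. The log2 difference was 1.01 ± 0.30 (SE, adjusted p = 0.00367, edgeR), higher in 4 of 5 heifers, and the call was lost without heifer 10872 (0.73, adjusted p = 0.0701). Against the upper horn AQP10 was not called (0.59 ± 0.37, adjusted p = 0.183, edgeR), and without heifer 11033 it was (0.95, adjusted p = 0.0176).

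**Figure D4:**
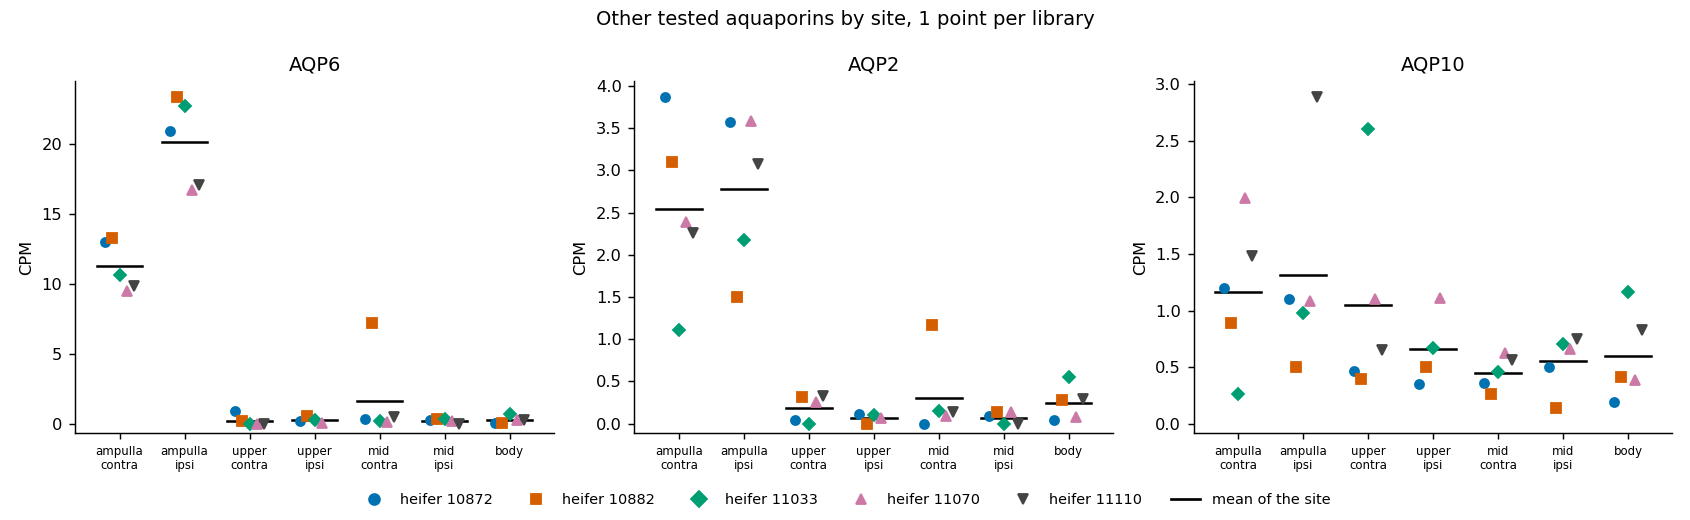
Level (CPM, linear axis, a separate scale in each panel) of AQP6, AQP2 and AQP10 in each of the 34 libraries by site; each symbol is 1 heifer and the bar is the mean of the site. AQP6 lies between 9.50 and 23.3 CPM in the ampulla, and the contralateral mid horn of heifer 10882 stands apart at 7.17 CPM.

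**Figure D5:**
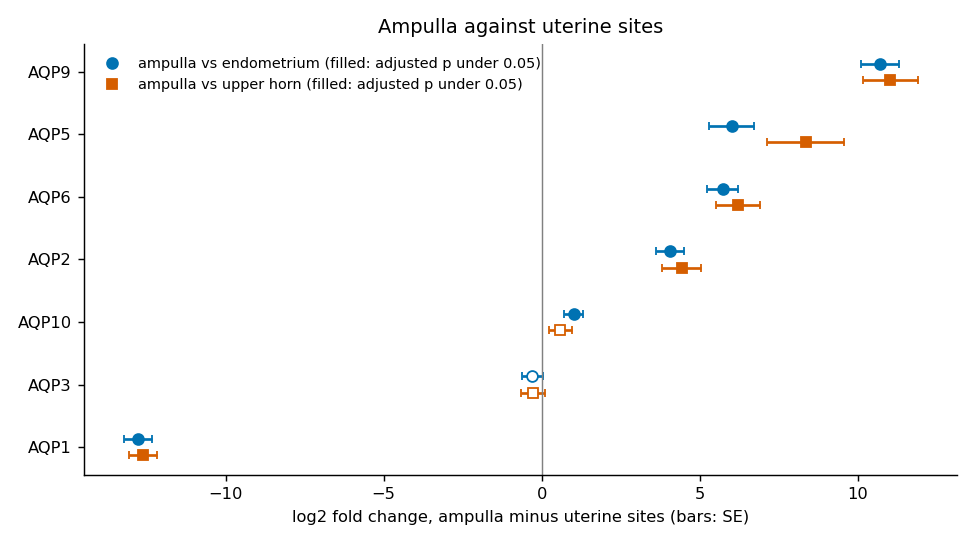
Log2 fold change (horizontal axis, ampulla minus uterine sites, bars are SE) of the 7 tested aquaporins against the endometrium (circles) and against the upper horn (squares); filled symbols passed the threshold. AQP1 lies on the negative side and AQP9, AQP5, AQP6 and AQP2 on the positive side in both comparisons, and AQP3 stays near 0.

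In the contralateral mid horn of heifer 10882 the rows with high ampulla levels stood at different shares of the ampulla mean of the same heifer. AQP2 was at 50.7%, AQP5 at 40.3% and AQP6 at 39.1%, beside 47.3% for KRT5 and 39.4% for MSLN, a cell surface protein of mesothelium and oviduct epithelium. AQP9 was at 7.30% by the row that stands for it. Its second row had 28 counts there, 1.21 CPM, against 1.71 CPM in the contralateral and 2.40 CPM in the ipsilateral ampulla of that heifer. The low share of AQP9 therefore depends on the row used. In the other 4 uterine libraries of heifer 10882 AQP5 and AQP9 had 0 counts, and AQP6 averaged 0.263 CPM. AQP1 in that library, 388 CPM, lay within the range of the other mid horn libraries.

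Between the sides of the ampulla the tested members were not called. The edgeR test called 0 of 4, where 0.0174% of all features were called, and 0 of 4 had an unadjusted p under 0.05. DESeq2 called 0, but it gave an adjusted p to only 1197 of 17241 features here. Whether the members were among these is not reported here, so its 0 is not read as a second test. AQP9 averaged 20.3 ± 8.76 CPM on the ipsilateral and 20.7 ± 11.99 CPM on the contralateral side (SD, n = 5), and the ipsilateral side was higher in 3 of 5 heifers. Its log2 difference was 0.01 with a 95% interval of -1.08 to 1.11. AQP5 averaged 2.39 ± 0.995 and 1.3998 ± 1.05 CPM, higher on the ipsilateral side in 4 of 5 heifers, with a log2 difference of 0.74 ± 0.94 (SE, adjusted p = 0.837, edgeR). AQP3 differed by -0.39 ± 0.53 and AQP1, with 10 counts, by 0.34 ± 1.10 (SE).

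AQP6 was the aquaporin whose sides did not overlap in the ampulla, and it is singled out here after its values were seen. It averaged 20.2 ± 3.11 CPM on the ipsilateral and 11.2 ± 1.79 CPM on the contralateral side (SD, n = 5). The ratio of the sides was 1.61, 1.75, 2.14, 1.76 and 1.74 in heifers 10872, 10882, 11033, 11070 and 11110, a mean of 1.80 ± 0.20 (SD). The fit, in which all 7 sites share an estimate of the spread, gave a log2 difference of 0.85 ± 0.70 (SE, adjusted p = 0.753, edgeR). The difference was thus the same way in 5 of 5 heifers and did not pass the test. AQP2, the neighbour of AQP5 on the other side, had ratios from 0.483 to 1.95.

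In the upper horn 0 of 4 members were called between sides by edgeR, 0 had an unadjusted p under 0.05 and DESeq2 called 0, where 0.0058% of all features were called. AQP5 had 0 counts in all 9 upper horn libraries and no estimable error, so this comparison is no test of AQP5. AQP9 had 1 count in these libraries (log2 1.33 ± 1.75, SE), too few to decide on a side difference. The absence of calls here thus rests on AQP1 and AQP3. AQP1 differed by 0.15 ± 0.37 (SE) on the log2 scale, and its ipsilateral side was higher in 3 of 4 heifers. In the mid horn 0 of 4 members were called by edgeR and 0 by DESeq2, where 0% of all features were called, 513 had an unadjusted p under 0.05 and DESeq2 called 19. AQP9 had an unadjusted p of 0.00184 there, with 43 counts on the contralateral and 0 on the ipsilateral side, 39 of them in heifer 10882 and 4 in the other heifers. The log2 difference of AQP9 there was -5.54 ± 1.53 (SE), and without that library of heifer 10882 it was -3.17 ± 1.31 (SE), with an adjusted p of 1 in edgeR both times. AQP1 differed by 0.08 ± 0.34 (SE) between the sides of the mid horn. The test of whether the side difference in the ampulla differed from that in the horns also called 0 of 4 members by edgeR and 0 by DESeq2, with 0% of all features called, 918 at an unadjusted p under 0.05 and 7 by DESeq2. AQP1 gave 0.23 ± 1.09 and AQP3 -0.42 ± 0.66 (SE) in it, and AQP5 and AQP9 had no estimable error in it.

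Along the uterus the members were not called either. AQP9 had no estimable error in the comparisons among upper horn, mid horn and body, so they are no test of AQP9. The counts out of 4 below include AQP9. Between upper and mid horn edgeR called 0 of 4, where 0.0174% of all features were called; 1 of 4, AQP5, had an unadjusted p under 0.05, and DESeq2 called 0. AQP5 had 0 counts in the upper and 31 in the mid horn, 16 of them in the contralateral mid horn of heifer 10882. The log2 difference was -4.53 ± 1.39 (SE, adjusted p = 0.708, edgeR), and without that library -3.47 ± 1.37 (SE, adjusted p = 0.865, edgeR). Between upper horn and body 0 of 4 were called, 0 at an unadjusted p under 0.05 and 0 by DESeq2, where 0.0232% of all features were called. Between mid horn and body 0 of 4 were called, 0 at an unadjusted p under 0.05 and 0 by DESeq2, where 4.45% of all features were called. That share moves with single libraries: without the contralateral mid horn of heifer 10882 edgeR called 1 of 17223 features between mid horn and body, and without 2 further libraries as well, the contralateral ampulla of heifer 11070 and the contralateral upper horn of heifer 11033, it called 1228 of 17052. The log2 differences of AQP1 were -0.09 ± 0.25 for upper minus mid horn, -0.41 ± 0.31 for upper horn minus body and -0.32 ± 0.30 for mid horn minus body (SE). For AQP3 the same differences were -0.17 ± 0.38, 0.09 ± 0.47 and 0.25 ± 0.45 (SE).

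Genes around aquaporin function were described by list in the comparison of ampulla with endometrium, in which 29.4% of all features were higher and 35.6% lower by the test. Water follows ions, and of 20 listed genes of epithelial ion transport 9 were tested, and edgeR called 3 of these higher and 3 lower in ampulla (median log2 -0.76). CFTR, the chloride channel that drives fluid secretion, was lower, with 0.554 ± 0.230 CPM against 31.5 ± 20.7 CPM (SD, n = 5; log2 -5.53 ± 0.42). SCNN1G, a subunit of the epithelial sodium channel, was higher, with 5.55 ± 3.42 against 1.35 ± 0.352 CPM. KCNE3, a potassium channel subunit, had 276 ± 95.0 and 125 ± 18.2 CPM. Adjusted p-values of the named genes in these lists were at most 0.0369 in edgeR's test.

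Of 16 listed genes of cell volume control 7 were tested, 2 called higher and 2 lower (median -0.07). LRRC8C, a subunit of the volume-regulated anion channel, was lower, with 1.19 ± 1.06 against 17.2 ± 1.26 CPM (SD, n = 5). NFAT5, the transcription factor of the response to high tonicity, was lower too, with 126 ± 8.84 against 357 ± 96.0 CPM. STK39, a kinase acting on ion cotransporters, and CLNS1A, a protein linked to swelling-activated currents, were higher by 0.95 ± 0.27 and 0.92 ± 0.25 on the log2 scale (SE).

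Of 12 listed genes of glycerol handling 6 were tested, 1 called higher and 2 lower (median -0.39). LPL, the lipase that frees fatty acids from circulating triglyceride, had 83.3 ± 24.6 CPM in the ampulla against 11.7 ± 5.19 CPM in the endometrium (SD, n = 5), and was higher in 5 of 5 heifers. MGLL, which releases glycerol from monoglycerides, fell by 2.702 ± 0.449, and DGAT2, an enzyme of triglyceride synthesis, fell by 1.45 ± 0.18 on the log2 scale (SE). Of 12 listed scaffolds and regulators of aquaporins 9 were tested, 0 called higher and 7 lower, where 29.4% of all features were higher and 35.6% lower, and with a median of -1.42 beside -0.18 over all features. AKAP12 and PRKACB, a kinase anchor and a catalytic subunit of protein kinase A, had 0.660 ± 0.600 against 3.62 ± 0.915 CPM and 0.416 ± 0.199 against 1.13 ± 0.166 CPM (SD, n = 5). DAG1, dystroglycan, had 0.0423 ± 0.0503 against 0.197 ± 0.0517 CPM (SD, n = 5), resting on 9 ampulla counts and 108 endometrial ones.

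Of 12 listed partners in urea, lactate and hydrogen peroxide handling 3 were tested, 2 called higher and 1 lower (median 0.26). GPX1, a peroxidase, had 859 ± 194 CPM in the ampulla against 360 ± 55.1 CPM in the endometrium (SD, n = 5). CAT, catalase, had 317 ± 62.6 against 274 ± 48.5 CPM (SD, n = 5). Its log2 difference was 0.26 ± 0.11 (SE, adjusted p = 0.0369, edgeR), and its CPM was higher in the ampulla in 3 of 5 heifers and lower in 2. SLC16A1, a monocarboxylate transporter, was lower, at 0.191 ± 0.137 and 0.965 ± 0.424 CPM. Against the upper horn alone the counts called higher and lower were the same in the lists of ion transport, volume control, glycerol and scaffolds, and were 1 and 1 of 3 in the last list.

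The genes most like each member by site were found from the root-mean-square difference of centred mean log2 CPM over the 7 sites, among 8999 genes. For AQP1 they were CD248, a surface protein of pericytes and fibroblasts, at 0.254, the noncoding RNA H19 at 0.283 and the nuclear receptor gene RORB at 0.304, where the profile of AQP1 spanned 11.6. For AQP9 they were NT5E, which makes adenosine outside the cell, at 0.287, the ATP-gated channel gene P2RX2 at 0.303 and OSTN at 0.342, over a span of 7.59. For AQP5 they were the complement gene C3 at 0.160, the heparanase gene HPSE at 0.284 and MAP1LC3C at 0.290, over a span of 4.59. For AQP3, whose profile spanned only 0.855, they were NCSTN at 0.0898, DSTYK at 0.0922 and GTF2H4 at 0.105. Without the contralateral mid horn of heifer 10882 the same 3 genes remained for AQP1, 2 of 3 remained for AQP5 and AQP9, and 1 of 3 for AQP3. A prior count of 2 was added before taking logs, which shortens the span of rows near 0 counts. The fitted log2 differences of ampulla from upper horn were 11.03 for AQP9 and 8.35 for AQP5, beyond these spans. For AQP1, AQP5 and AQP9 the likeness therefore depends in part on that floor. The sites share animals and depth, so these values describe the profiles and carry no test.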

How the data were processed

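RNA was sequenced from 34 libraries of 7 sites in 5 heifers. The authors deposited a table of read counts per transcript, whole numbers without normalisation. The tools named, per the submitters' processing notes, are STAR 2.7.9a, cutadapt, SAMtools and HTSeq, with no role stated. Genome build, annotation, strand setting and treatment of shared reads: not given in the sources used here. Total RNA and a stranded kit were used, per the labels' protocols. Of 38568 rows, 26349 were matched to 21541 genes by a RefSeq table (assembly ARS-UCD2.0, names and gene order only) and held 91.7% of all counts. A read shared between transcripts can be lost or split, so levels of different genes were not compared by size of expression.

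CPM were computed from counts and library totals scaled by TMM. Tests used edgeR 4.0.16 in R 4.3.3 (filterByExpr, minimum count 10, robust quasi-likelihood F test) on all 34 libraries with site and heifer as terms, 9 comparisons, and Benjamini-Hochberg adjustment over 17241 features within each. The heifer term follows from the sample titles, since each animal gave all of its sites; deviations from site means correlated with a median of 0.242 over 99 pairs of the same heifer and -0.0597 over 396 other pairs. No pair of libraries of a site agreed within sampling noise (66 pairs). A mean ± SD is over heifers. Count ratios have 95% exact intervals, and bounds use 3 counts over the group; both cover counting error only.

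The 8 aquaporins, the gene lists and the comparisons were chosen with earlier results of these data known. The genes named from each list are the up to 4 with the largest log2 difference among those called, except some that are not reported here, and the likeness search used a prior count of 2. Alternatives were DESeq2 1.42.0 size factors and its Wald test, no filter on low counts, no heifer term, each heifer left out, doubted libraries left out, and the rows of a gene summed. Leaving out the contralateral ampulla of heifer 11070 alone was chosen after seeing the data. The scripts were tested on simulated data.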

Additional observations from a re-analysis of the deposited data

Results flagged for a closer look

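Of 44 site groups of 4 or 5 libraries examined for the 7 tested aquaporins, 9 held a library set apart from the rest by Dixon's test at the 95% level. Chance alone flags about 1 group in 20 where values are normally distributed. Several of these groups are mostly at 0 counts, where a lone library with a count is set apart by construction, so the number found is not read against that rate.

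In the contralateral mid horn the library of heifer 10882 stood apart for 4 genes: AQP6 at 7.17 CPM with the next at 0.47, AQP9 at 1.68 with the next at 0.101, AQP2 at 1.17 with the next at 0.151, and AQP5 at 0.691 with the next at 0.133. AQP3 stood apart in heifer 10882 in the contralateral upper horn, at 4.13 CPM with the next at 0.966, and in the ipsilateral mid horn, at 2.999 CPM with the next at 1.15. AQP6 stood apart in the contralateral upper horn of heifer 10872, at 0.935 CPM or 20 counts, where the next was 0.159. AQP10 stood apart in the ipsilateral ampulla of heifer 11110, at 2.89 CPM with the next at 1.10. AQP9 in the ipsilateral upper horn of heifer 11070, at 0.0618 CPM, rests on 1 count.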

How the results depend on the processing

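In both ampulla comparisons AQP1, AQP5 and AQP9 kept their direction and call in 13 of 13 alternatives. Against the endometrium their log2 differences ran from -13.52 to -12.37, from 5.58 to 6.69 and from 10.19 to 11.06, and against the upper horn from -13.55 to -12.18, from 7.65 to 8.71 and from 10.53 to 11.95. AQP3 was called in 0 of 13 in both. The side difference of AQP6 in the ampulla was called in 0 of 13, with log2 values from 0.79 to 1.02. The DESeq2 test among them gave an adjusted p to only 1197 features in that comparison, so it may not have covered AQP6. Mean CPM of the 4 tested members in ampulla and endometrium moved by less than the SD between heifers when plain library totals or DESeq2 size factors were used. Without the replicate block for heifers, 3 members were called in each of these comparisons and 0 in the other 7, as with it. With no filter on low counts 1 member was called between upper and mid horn (AQP5, -4.56 ± 0.89, adjusted p = 0.000178) and 1 between the sides of the mid horn (AQP9, -5.56 ± 0.99, adjusted p = 1.33e-05); AQP6 was called there as well (-2.34, adjusted p = 0.00302). The fit with no filter was not repeated without the contralateral mid horn of heifer 10882, which holds 16 of the 31 mid horn counts of AQP5, 39 of the 43 of AQP9 and 166 of the 212 of AQP6. With the filter and without that library, AQP6 differed between the sides of the mid horn by -0.42 ± 0.82 (SE, adjusted p = 1, edgeR), against -2.34 ± 0.92 with it. The cause was not tested.

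Over all features, calls between mid horn and body were 767, against 1276 with DESeq2 size factors, 2714 by DESeq2, 2057 with no filter and 1 with no replicate block. They were 1 without the contralateral mid horn of heifer 10882, 1373 without the contralateral ampulla of heifer 11070 and 1228 without both of these and the contralateral upper horn of heifer 11033, and leaving out heifers 10872, 10882, 11033, 11070 and 11110 in turn gave 1835, 0, 2, 0 and 1045. By edgeR, DESeq2 and edgeR with no filter they were 3, 21 and 207 between upper and mid horn, 4, 12 and 150 between upper horn and body, 3, 16 and 150 between the sides of the ampulla, 1, 15 and 173 of the upper horn and 0, 19 and 140 of the mid horn, and 0, 7 and 116 for the side by region test. DESeq2 gave an adjusted p to 1197 features for the sides of the ampulla, 14567 for the upper horn and 13230 for the mid horn. For upper against mid horn it gave 15569, while edgeR with the filter tested 17241 each time. AQP5 and AQP3, at a few CPM, and the side differences of AQP5 and AQP9 in the uterus are limited by depth.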
